A study of Mus musculus with 15 samples.

Results

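The regions described are the gene desert peaks of mouse embryonic fibroblasts (MEFs): accessible sites of a consensus list, each centred more than 100 kb away from all protein-coding genes that RefSeq places on GRCm38.p6 (mm10). Of 206367 consensus peaks, 23254 (11.3%) met this rule, and 23247 of them passed the filter on low counts. The rule used position alone and no measured value. The consensus list, however, was taken as deposited, and how it was built is not given. Members may have entered it through the libraries in which they were most accessible. The counts of calls and the read shares below carry this limit, and its part was not tested. A further 130 peaks lay on unplaced scaffolds that hold no annotated protein-coding gene, so their distance could not be given and they were kept out. The name holds for protein-coding genes only, since 4373 of the members (18.8%) overlapped an annotated non-coding gene and 4541 (19.5%) lay more than 100 kb from any annotated gene.

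Accessibility was measured by Omni-ATAC-seq, in which a transposase cuts open chromatin and leaves sequencing adapters there, in 15 libraries of MEFs, primary connective tissue cells grown from mouse embryos, all of a C57/B16 background as labelled. The Ezh2 inhibitor group (3 libraries) had 3 days of GSK343, an inhibitor of Ezh2, at 4 µM and then a washout day. Early and late Fra2 cells (3 libraries each) carried the CRISPRa-VPR-mCherry construct, a guide-directed transcriptional activator with a red reporter, and guides against Fosl2, the gene of Fra2. Late and early control cells (3 libraries each) carried the same construct with scrambled guides. These 4 groups were sorted as mCherry+/THY1+ cells. Most sample labels put early and late cells at days 3 and 10 after lentiviral infection, the series design puts them at days 4 and 11, and early control 3 and the inhibitor libraries are labelled day 4. No untreated group is labelled for the inhibitor, so early controls served as its comparison. Whether these cells received a construct or were sorted is not labelled. Their titles bear S-numbers 27 to 29, whereas the rest bear 1 to 12, so treatment and library set cannot be told apart. Nothing states that replicates were separate cultures, and p-values therefore reflect only how far these libraries vary, possibly for technical reasons. Cells were measured in bulk, and more cells with an open site cannot be told apart from a more open site in each cell.

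The libraries held 6.75 to 25.3 M reads in peaks, and 3 reads, taken as the floor of detection for counting error, equalled 0.117 to 0.42 CPM, the count of a peak per M reads in peaks, scaled by edgeR's trimmed mean of M-values (TMM). Some named peaks had a library at or below this floor, not marked each time, and their fold changes rest on few reads. Early control 3 was the shallowest library and stood apart, with a lowest correlation to a library of its own group of 0.783, against 0.896 or more in the other groups. The count of calls in each comparison that uses it is also given without it. Gene-end peaks were present for 19 of 20 fibroblast marker genes, Lum being the exception, with a median of 12.5 CPM. The medians were 3.38 CPM for neuronal and glial, 3.2 CPM for endothelial, 2.98 CPM for muscle and 2.46 CPM for epithelial markers. Of 8 macrophage markers, 5 had no gene-end peak (Ptprc, Adgre1, Itgam, Tyrobp and Laptm5), while Spi1, Csf1r and Cd68 had 9.04, 9.52 and 11.5 CPM. The list summed to 27.7 to 32.7 CPM in early Fra2, 32.3 to 34.4 CPM in late Fra2, 26.6 to 29.5 CPM in inhibitor, 30.8 to 33.7 CPM in late control and 24.9 to 30.3 CPM in early control cells. Levels of Fra2 RNA or protein were not analysed here.

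Gene deserts are long stretches of chromosome without protein-coding genes, often beside genes of developmental regulators, and many accessible sites inside them are known as enhancers that act over long distances. Fra2 pairs with Jun proteins to form AP-1, which binds a short near-palindromic motif and, in fibroblasts, is known to act mainly at enhancers, often together with TEAD factors. Ezh2 is the catalytic subunit of Polycomb repressive complex 2, which methylates histone H3 and is linked to silencing of developmental genes.

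Sequence could be read for the part of the gene deserts where RefSeq gives the 300 bases around the start of a non-coding gene. A whole window of this kind lay inside 87 members (89 windows), all on GRCm38.p6. The AP-1 motif TGANTCA, searched on both strands, was found in 28 of the 89 windows (31.5%), against 7.81% of all 32851 RefSeq start windows of the same length. The TEAD motif GGAATG was found in 29.2% of the windows in members and in 14.7% of all windows. The 8-letter cAMP response element, which cannot contain TGANTCA, was found in 0 of the 89 windows and in 1.79% of all windows, and CCAAT was found in 34.8% and 37.4%. The set of all windows was not limited to accessible sites or to non-coding genes. These shares therefore do not set gene deserts apart from other accessible sites. Of 9 windows in members called higher in early Fra2 cells, 4 held the AP-1 motif, and of 9 in members called lower, 0 held it. In late Fra2 cells it was found in 4 of 7 windows in members called higher and in 1 of 8 in members called lower. A match describes letters and is no evidence of binding, and its absence says only that these letters are not in the window. The following 4 windows lie in members called higher in early Fra2 cells and hold an AP-1 match, set in capitals together with the TEAD match in Gm11228.
Gm8883: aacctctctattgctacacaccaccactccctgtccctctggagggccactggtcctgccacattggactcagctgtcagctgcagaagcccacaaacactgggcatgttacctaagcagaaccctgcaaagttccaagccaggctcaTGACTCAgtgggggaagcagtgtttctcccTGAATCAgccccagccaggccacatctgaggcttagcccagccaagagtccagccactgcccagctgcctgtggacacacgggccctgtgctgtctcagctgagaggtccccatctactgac
4732465J04Rik: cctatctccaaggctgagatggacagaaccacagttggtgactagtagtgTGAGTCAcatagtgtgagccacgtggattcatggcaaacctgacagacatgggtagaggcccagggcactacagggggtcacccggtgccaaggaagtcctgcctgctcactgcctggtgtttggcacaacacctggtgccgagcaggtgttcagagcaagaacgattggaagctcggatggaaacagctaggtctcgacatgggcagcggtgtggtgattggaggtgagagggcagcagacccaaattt
4930542M03Rik: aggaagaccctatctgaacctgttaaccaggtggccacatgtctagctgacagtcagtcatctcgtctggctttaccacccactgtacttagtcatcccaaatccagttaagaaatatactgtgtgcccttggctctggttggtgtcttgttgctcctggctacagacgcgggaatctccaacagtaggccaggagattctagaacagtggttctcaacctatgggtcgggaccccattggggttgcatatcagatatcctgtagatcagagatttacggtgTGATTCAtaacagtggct
Gm11228: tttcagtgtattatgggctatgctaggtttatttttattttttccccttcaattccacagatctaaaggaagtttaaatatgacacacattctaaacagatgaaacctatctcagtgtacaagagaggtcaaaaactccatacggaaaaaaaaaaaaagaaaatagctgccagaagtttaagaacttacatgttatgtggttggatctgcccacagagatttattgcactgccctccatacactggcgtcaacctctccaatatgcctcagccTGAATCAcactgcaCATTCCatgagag
The next 2 windows lie in members called lower at both times and hold neither motif.
Gm11734: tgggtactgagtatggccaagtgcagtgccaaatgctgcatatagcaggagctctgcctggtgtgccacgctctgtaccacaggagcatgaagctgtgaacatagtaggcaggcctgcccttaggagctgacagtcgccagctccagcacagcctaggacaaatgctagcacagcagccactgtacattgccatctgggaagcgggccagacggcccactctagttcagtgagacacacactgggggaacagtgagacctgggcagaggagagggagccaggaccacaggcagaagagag
6820426E19Rik: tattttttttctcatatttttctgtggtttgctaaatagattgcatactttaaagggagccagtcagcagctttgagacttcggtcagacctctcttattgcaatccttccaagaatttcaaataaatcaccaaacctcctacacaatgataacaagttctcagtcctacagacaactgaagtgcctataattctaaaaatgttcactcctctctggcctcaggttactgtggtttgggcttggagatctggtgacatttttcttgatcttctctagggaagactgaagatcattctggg
The Gm8883 window, which holds 2 AP-1 matches, is at chr1:71887862-71888161 on the plus strand. The others are at chr10:95772883-95773182 (plus), chr17:45881403-45881702 (minus), chr4:71131084-71131383 (minus), chr11:117522930-117523229 (plus) and chr6:117494985-117495284 (plus), in the order printed.

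The site at Gm8883, 235 kb from Fn1, the gene of the matrix protein fibronectin, held the first of the printed windows. It measured 16.5, 14.9 and 13.2 CPM in early Fra2 cells and 7.03, 6.89 and 8.12 CPM in early control cells, groups that did not overlap (log2 fold change 1.04 ± 0.16, edgeR adjusted p = 3.19e-06, with the standard error after ± here and for every fold change that follows). In late cells it measured 12.7, 11.7 and 11.1 CPM with Fra2 guides and 6.2, 6.64 and 8.65 CPM with scrambled guides (log2 fold change 0.72 ± 0.16, edgeR adjusted p = 0.00159). The inhibitor libraries, at 8.09, 8.94 and 8.08 CPM, overlapped the early controls. The site at 4732465J04Rik, 168 kb from the endosomal tether gene Eea1, had 2.52, 3.2 and 2.81 CPM in early Fra2 cells and 0.805, 0.218 and 2.8 CPM in early controls (log2 fold change 1.42 ± 0.42, edgeR adjusted p = 0.0147). Here early control 3 lay inside the Fra2 range, so the groups overlapped. The site at 4930542M03Rik, 135 kb from the angiogenic factor gene Vegfa, had 2.8, 3.36 and 5.4 CPM in early Fra2 cells and 2.04, 1.89 and 2.24 CPM in early controls (log2 fold change 0.90 ± 0.27, edgeR adjusted p = 0.0144), without overlap. Late controls were also called above early controls there (0.92 ± 0.26, edgeR adjusted p = 0.0371). The late Fra2 effect was not called (-0.33 ± 0.24, edgeR adjusted p = 0.38). At Gm11228, 596 kb from Megf9, the values were 15.9, 11.4 and 12.8 CPM in early Fra2 cells and 9.93, 8.42 and 9.8 CPM in early controls (log2 fold change 0.53 ± 0.16, edgeR adjusted p = 0.0197), again without overlap.

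At the pair of sites without either motif, Fra2 libraries were the lower ones. The site at 6820426E19Rik, 314 kb from the chemokine gene Cxcl12, had 6.65, 6.48 and 7.06 CPM in early Fra2 cells and 11.8, 10.9 and 9.38 CPM in early controls (log2 fold change -0.69 ± 0.17, edgeR adjusted p = 0.00239). In late cells it had 7.15, 6.03 and 4.48 CPM with Fra2 guides and 11.1, 10.5 and 10.8 CPM with scrambled guides (log2 fold change -0.85 ± 0.16, edgeR adjusted p = 0.000273). Neither pair of groups overlapped. The site at Gm11734, 131 kb from Tnrc6c, whose protein works in microRNA silencing, had 1.33, 1.6 and 1.73 CPM in early Fra2 cells and 2.36, 3.48 and 3.36 CPM in early controls (log2 fold change -0.97 ± 0.30, edgeR adjusted p = 0.0191). Members with a start window and no AP-1 match also rose at both times, namely those at 1700017M07Rik, between Sox2 and Atp11b, and at Gm41331, at log2 fold changes of 1.26 and 1.57 early and 0.85 and 0.84 late.

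Gene desert peaks were on the whole weaker than other sites. Their median distance to a protein-coding gene was 234 kb (quartiles 150 and 402 kb), 17.9% lay beyond 500 kb and 4.09% beyond 1 Mb, up to 2.27 Mb. Mean accessibility over the 15 libraries had a median of 2.69 CPM (quartiles 1.96 and 4.26 CPM), against 3.27 CPM for all consensus peaks, 3.04 CPM for peaks 10 to 100 kb from a gene, 3.12 CPM in gene bodies and 6.03 CPM at gene ends, where a gene-end peak is one centred within 1 kb of either end of a protein-coding gene. Nearly all consensus peaks (206366) were 502 bp wide, so these levels compare like lengths. Of the members, 3578 (15.4%) were overlapped by a listed peak in all 15 deposited lists, against 28.9% of all consensus peaks, and 4.6% were in 3 lists or fewer, against 2.72%. The share of members listed per library ran over 60.2 to 87.3% in early Fra2, 78.9 to 91.8% in late Fra2, 81.5 to 86.9% in inhibitor, 47.8 to 65.4% in late control and 19.0 to 74.0% in early control cells, with early control 3 lowest. Depth differed between these libraries and its part in the listing was not tested.

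The 10 most accessible members changed little, with Fra2 log2 fold changes of -0.26 to 0.23 early and -0.53 to -0.1 late. The late values were thus all negative. Small changes were not general among strong members, since in the strongest of 5 bins of mean accessibility, described below, 24.8% were called higher early. The strongest lay 297 kb from Myc, the proto-oncogene transcription factor, at chr15:62287163-62287664, with a mean of 42.8 CPM. It had 50.8, 47.8 and 41.7 CPM in early Fra2 cells, 39.7, 37.8 and 41.3 CPM in late Fra2 cells, 43.1, 39.1 and 34.5 CPM in inhibitor cells, 45.5, 56.8 and 46.8 CPM in late controls and 47.3, 43.9 and 26.6 CPM in early controls. Only the late Fra2 libraries, all below the late controls, did not overlap the group they are set against, and the peak was called in neither Fra2 comparison (log2 fold change 0.23 ± 0.16 early, edgeR adjusted p = 0.339, and -0.33 ± 0.16 late, edgeR adjusted p = 0.185). The second lay 103 kb from Trib1, a pseudokinase gene, with 40.4, 38.5 and 34.9 CPM in early Fra2 cells and 41.9, 46.9 and 29.4 CPM in early controls, groups that overlapped. Its late Fra2 libraries, at 35.4, 29.2 and 35.3 CPM, lay below the late controls at 36.6, 46.1 and 46.1 CPM. It was not called late (log2 fold change -0.37 ± 0.16, edgeR adjusted p = 0.122). Of the 10 strongest members, the one 110 kb from Ogfrl1 was the only one called in a Fra2 comparison. It had 29.4, 26.1 and 26.4 CPM in late Fra2 cells and 33.7, 44.1 and 40.1 CPM in late controls (log2 fold change -0.53 ± 0.15, edgeR adjusted p = 0.0194), without overlap. The 5 members farthest from a protein-coding gene, at 2190 to 2270 kb, lay between Pcdh20 and Pcdh9, between Olfm4 and Pcdh17 and between Celf4 and Pik3c3, and none was called in a Fra2 comparison.

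The share of each library's reads that fell in gene desert peaks was higher in every Fra2 library than in every control library. It was 9.31, 9.12 and 9.24% in early Fra2 cells and 7.99, 7.92 and 7.99% in early controls, a difference of 1.26 percentage points (9.22 ± 0.0973% and 7.97 ± 0.0421%, SD, n = 3 each). It was 9.25, 9.26 and 9.01% in late Fra2 cells and 8.23, 7.80 and 7.90% in late controls, a difference of 1.2 points. Inhibitor libraries, at 8.58, 8.58 and 8.61%, lay above the early controls and below the Fra2 libraries. With labels permuted within each time, the 6 Fra2 libraries (9.2 ± 0.113%) and the 6 control libraries (7.97 ± 0.148%) gave a two-sided exact permutation p of 0.005, the smallest this design allows (adjusted p = 0.025 over 5 tests), and the direction held in 6 of 6 Fra2 libraries. Each comparison of 3 against 3 for Fra2 and for the inhibitor gave an exact two-sided p of 0.1, the smallest possible (adjusted p = 0.125). Late and early controls overlapped (exact two-sided p = 1.0, difference 0.01 points).

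The gene-end share moved the other way, at 21.9, 21.7 and 20.7% in early Fra2 cells and 25.9, 25.5 and 23.0% in early controls, and at 20.7, 20.4 and 20.9% in late Fra2 cells and 22.7, 24.6 and 24.8% in late controls. Shares of one library sum to a whole, so a lower gene-end share alone raises the others. The share in peaks 10 to 100 kb from a gene was also higher in every Fra2 library than in every control library. It was 16.5, 16.4 and 16.5% in early Fra2 cells and 15.3, 15.2 and 15.5% in early controls. In late cells it was 16.7, 16.7 and 16.6% with Fra2 guides and 16.0, 15.6 and 15.6% with scrambled guides. A higher share with Fra2 is thus not particular to gene deserts. Among reads outside gene-end peaks the desert share was still 11.7% in early Fra2 and 10.6% in early control libraries, 11.6% in late Fra2 and 10.5% in late control libraries, and 11.1% in inhibitor libraries, with the same exact p of 0.005 for Fra2 over both times.

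**Figure D1:**
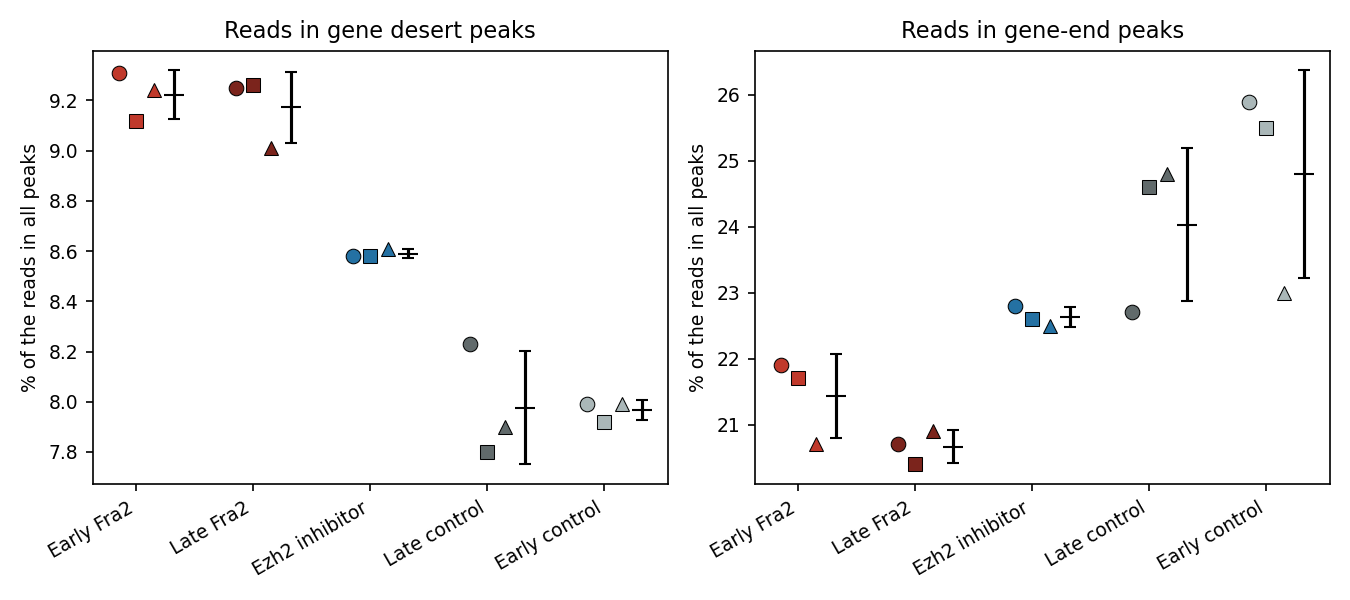
Share of all reads in peaks (percent, y axis, not starting at 0) that fell in gene desert peaks (left) and gene-end peaks (right), for each library (points; circle, square and triangle are replicates 1, 2 and 3) of early Fra2, late Fra2, Ezh2 inhibitor, late control and early control cells, with bars for the mean ± SD. In the left panel the 6 Fra2 libraries lie at 9.01 to 9.31%, above the 6 control libraries at 7.80 to 8.23%, and the inhibitor libraries lie between them.

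Early after Fra2 activation, gene desert peaks gained accessibility far more often than they lost it. Of 23247 members tested, 3730 were higher and 592 lower in early Fra2 than in early control cells at a Benjamini-Hochberg adjusted p under 0.05 in edgeR's quasi-likelihood test over all tested peaks. These are 16.0% and 2.55% of the members, against 10.1% and 4.92% of all tested peaks. The median log2 fold change of all members tested was 0.19, against -0.03 for all tested peaks, 0.06 for peaks 10 to 100 kb from a gene, -0.02 in gene bodies and -0.22 at gene ends. Members called higher had a median level of 4.92 CPM in early Fra2 cells and 2.46 CPM in early controls. Members called lower had 1.99 CPM in early Fra2 cells and 3.74 CPM in early controls. Without early control 3, 4304 were higher and 837 lower, and without early Fra2 1 the calls fell to 2797 in all. With scaling factors taken from gene-end peaks, under which the median of all tested peaks was 0.17 in place of -0.03, 6336 were higher and 207 lower (18.4% and 1.49% of all tested peaks), so that 96.8% of calls were higher, against 86.3% with scaling on all peaks, and the median of the members was 0.39.

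**Figure D2:**
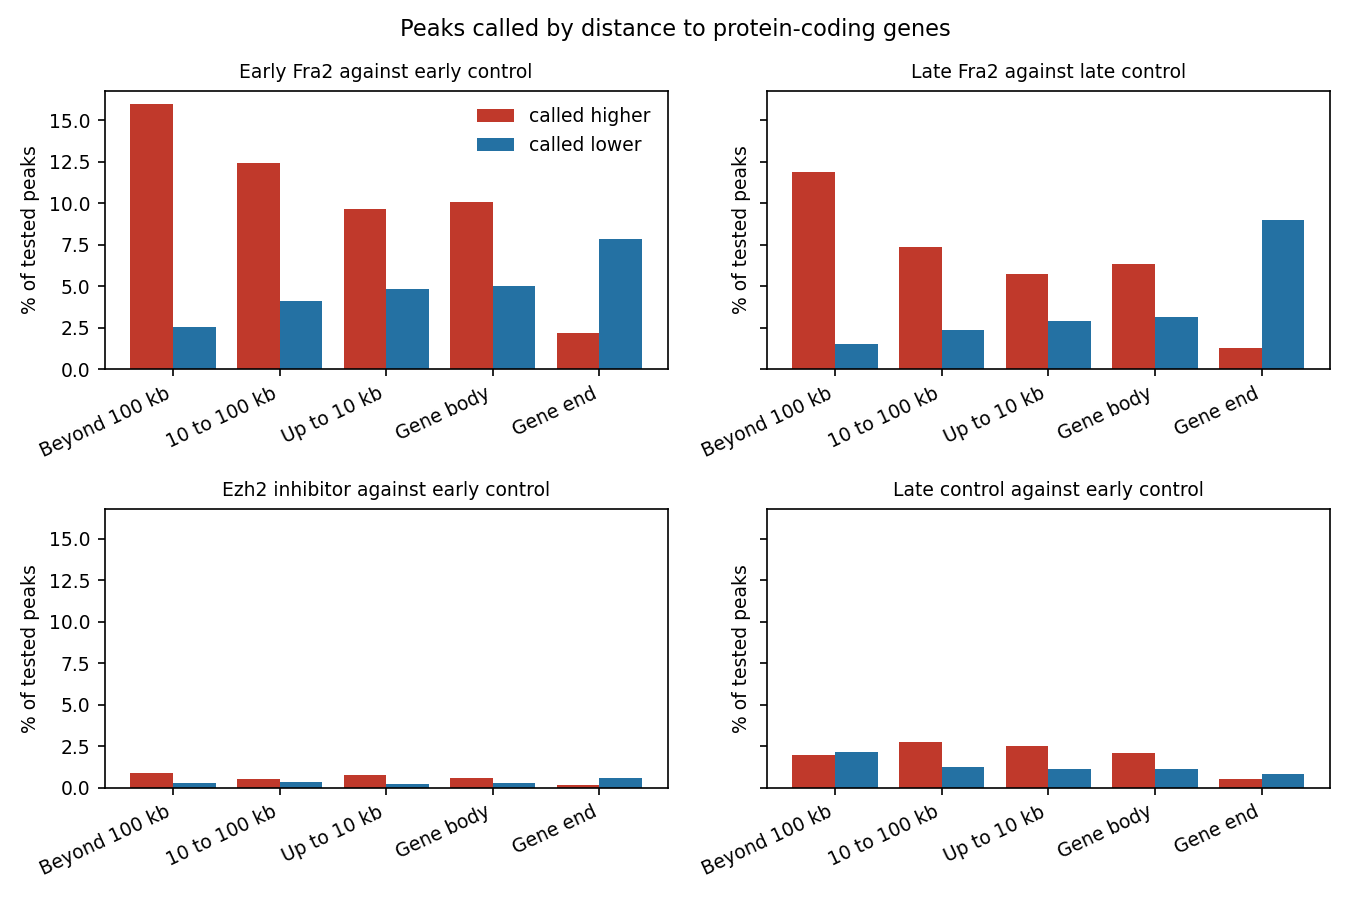
Percent of tested peaks called higher and lower (y axis) by position class (x axis) in each of the 4 comparisons, by edgeR's quasi-likelihood test at an adjusted p under 0.05. In early Fra2 against early control cells, 16.0% of gene desert peaks were higher and 2.55% lower, while 2.18% of gene-end peaks were higher and 7.87% lower.

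The largest early gains were at weak sites. The peak 148 kb from Chst7, a carbohydrate sulfotransferase gene, at chrX:19910857-19911358, had 4.32, 6.24 and 2.67 CPM in early Fra2 cells and 0.751, 0.58 and 0.84 CPM in early controls (log2 fold change 2.62 ± 0.36, edgeR adjusted p = 2.39e-07). The peak 655 kb from D3Ertd751e, on the side of the protocadherin gene Pcdh10, at chr3:42457934-42458435, had 4.56, 3.6 and 2.81 CPM in early Fra2 cells and 0.859, 0.363 and 0.56 CPM in early controls (log2 fold change 2.56 ± 0.37, edgeR adjusted p = 7.93e-07). In both, every Fra2 library was above every control library. The remaining 4 of the 6 largest gains lay near Kcnt2, a potassium channel gene, Nat1, an acetyltransferase gene, the atypical cadherin gene Fat3 and Caap1, with log2 fold changes of 2.43 to 2.52, and their groups did not overlap either.

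The largest early losses were also at weak sites. The peak 898 kb from Trim52, towards the neuronal membrane protein gene Slitrk1, at chr14:107033738-107034239, had 0.76, 1.28 and 1.15 CPM in early Fra2 cells and 4.13, 3.48 and 5.6 CPM in early controls (log2 fold change -2.05 ± 0.31, edgeR adjusted p = 2.51e-06), and it fell in late Fra2 cells too (-1.55 ± 0.33, edgeR adjusted p = 0.00135). Late controls were also called below early controls there (-0.95 ± 0.28, edgeR adjusted p = 0.0443). The peak 347 kb from Prr30, towards Klf12, had 0.807, 0.56 and 0.288 CPM in early Fra2 cells and 3.7, 3.56 and 3.5 CPM in early controls (log2 fold change -2.62 ± 0.38, edgeR adjusted p = 9.17e-07). At this peak too late controls were called below early controls (-1.13 ± 0.33, edgeR adjusted p = 0.0426). Its late Fra2 effect was not called (-0.66 ± 0.36, edgeR adjusted p = 0.233). The peak 472 kb from Pcdh7, a protocadherin gene, had 0.237, 0.4 and 0 CPM in early Fra2 cells, at or near the floor, and 1.5, 1.6 and 2.1 CPM in early controls (log2 fold change -2.96 ± 0.59, edgeR adjusted p = 0.000259). In these 3 peaks all Fra2 libraries lay below all controls. The other 3 lay near the chaperone gene Dnajb9, between A1bg and Myc, and 113 kb from the growth factor gene Bmp2.

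**Figure D3:**
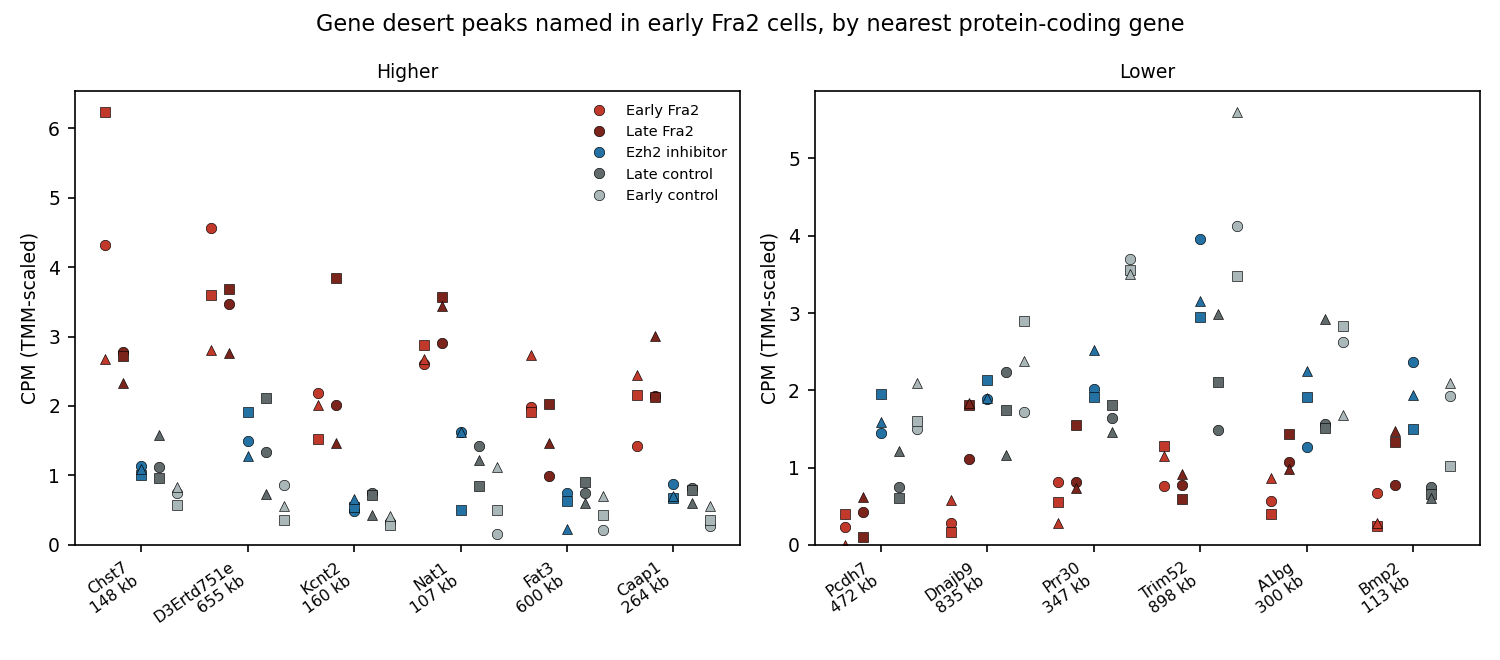
Accessibility (TMM-scaled CPM, y axis, linear scale) in each library of the 6 gene desert peaks with the largest gain and the 6 with the largest loss in early Fra2 cells, for early Fra2, late Fra2, Ezh2 inhibitor, late control and early control cells; circle, square and triangle are replicates 1, 2 and 3. Early Fra2 libraries do not overlap early controls at any of the 12, the rule by which the 12 were chosen, as at Chst7 with 2.67 to 6.24 CPM in early Fra2 cells and 0.58 to 0.84 CPM in early controls.

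Late Fra2 cells showed the same balance with fewer calls. Against late controls, 2766 members were higher and 357 lower (11.9% and 1.54%, against 6.44% and 3.54% of all tested peaks), with a median log2 fold change of 0.21 for the members and -0.01 for all tested peaks. Members called higher had a median of 4.12 CPM in late Fra2 cells and 2.12 CPM in late controls. The count of calls was 3123, and fell to 1683 without late Fra2 1, 1694 without late Fra2 2, 1763 without late control 2 and 1509 without late control 3. It was 4591 without early control 3, which enters only the shared estimate of the spread. Gene-end scaling, under which the median of all tested peaks was 0.22, gave 6169 higher and 111 lower (16.4% and 0.961% of all tested peaks), with 98.2% of calls higher, against 88.6%.

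The largest late gains were at weak sites too. The peak 250 kb from Gria4, a glutamate receptor subunit gene, at chr9:5046461-5046962, had 2.57, 3.31 and 1.72 CPM in late Fra2 cells and 0.523, 0.664 and 0.183 CPM in late controls (log2 fold change 2.47 ± 0.42, edgeR adjusted p = 6.4e-05). The peak 120 kb from Clnk, an immune adaptor gene, had 3.38, 4.91 and 3.75 CPM in late Fra2 cells and 0.598, 1.21 and 0.426 CPM in late controls (log2 fold change 2.40 ± 0.33, edgeR adjusted p = 1.03e-06). The peak 438 kb from Btbd3, on the side of the Notch ligand gene Jag1, had 5.01, 4.21 and 3.38 CPM in late Fra2 cells and 1.05, 0.724 and 0.914 CPM in late controls (log2 fold change 2.24 ± 0.31, edgeR adjusted p = 1.78e-06). None of these overlapped between the groups, and the peaks near Gria4 and Clnk were also higher in early Fra2 cells, at 1.15 ± 0.37 (edgeR adjusted p = 0.0279) and 1.53 ± 0.33 (edgeR adjusted p = 0.000536). At Gria4, Clnk and Btbd3 the log2 fold changes of late against early controls were -1.53 ± 0.47, -0.60 ± 0.39 and -1.03 ± 0.36, none of them called. The other 3 of the 6 largest late gains lay 1130 kb from Klhl29, 436 kb from Rps29 and 715 kb from Trim52, at 2.22 to 2.35. Absence of overlap was a condition for naming peaks by size. At these 3 the log2 fold changes of late against early controls were -1.26 ± 0.47, -0.95 ± 0.46 and -1.83 ± 0.58, none of them called. Of the 3, only the Rps29 peak was also called higher in early Fra2 cells (1.31 ± 0.38, edgeR adjusted p = 0.0137). The largest late losses lay near Adgra3, an adhesion receptor gene, at 0.214, 0.32 and 0.921 CPM in late Fra2 cells and 1.79, 2.17 and 3.05 CPM in late controls (log2 fold change -2.34 ± 0.42, edgeR adjusted p = 0.000143), then near Celf4, Tox, 2610001J05Rik, Tmem121 and Tmem167, at -2.12 to -1.61, without overlap.

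The early and late Fra2 comparisons use different control libraries, whereas the early Fra2, inhibitor and late control comparisons share the early controls. Of the members called higher, 1499 were higher at both times, which is 40.2% of the early and 54.2% of the late list, and 83 were lower at both times, 14% of the early and 23.2% of the late list. Of the members called higher early, 4 were called lower late, and of those called lower early, 2 were called higher late. Over all tested peaks the shares were 35.4% and 55.3% for higher calls and 15.8% and 21.9% for lower calls, so the members' lower calls were shared in nearly the same proportions. A member that gained at both times lay 302 kb from Tfap2b, a transcription factor gene of neural crest and kidney, with 10.0, 9.03 and 7.06 CPM in early Fra2 cells and 2.52, 2.47 and 5.88 CPM in early controls, and with 9.33, 6.56 and 9.33 CPM in late Fra2 cells and 4.03, 2.59 and 2.56 CPM in late controls. Its log2 fold changes were 1.43 ± 0.22 (edgeR adjusted p = 2.02e-06) and 1.48 ± 0.21 (edgeR adjusted p = 2.13e-06), and neither pair of groups overlapped.

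The Fra2 effect itself differed between the times at 28 members. The late minus early difference was positive at 1 and negative at 27 (0.0116% and 0.0819% of all tested peaks were called in these directions). The positive one, 835 kb from Dnajb9, fell early (log2 fold change -2.74 ± 0.46, edgeR adjusted p = 1.21e-05). It was not called late (-0.11 ± 0.36, edgeR adjusted p = 0.875). All 27 with a negative difference had a positive early effect. The difference subtracts the early effect, so choosing peaks by a negative difference favours a positive early effect. It also favours late controls above early controls. Of the 28, 26 were called higher early and 4 were called late. The count depended on single libraries, with 57 without early control 3, 86 without early control 1, 9 without early control 2, 6, 7 and 30 without early Fra2 1, 2 and 3, 17, 5 and 4 without late Fra2 1, 2 and 3, 15, 4 and 10 without late control 1, 2 and 3, and 18, 21 and 19 without inhibitor 1, 2 and 3. At the first 4 by p, late controls stood above early controls. The peak 452 kb from Zfp462, a zinc finger gene, had 9.73, 6.87 and 8.0 CPM in early Fra2 cells and 3.27, 3.19 and 2.24 CPM in early controls, but 8.39, 8.64 and 6.45 CPM in late Fra2 cells and 8.59, 7.06 and 7.98 CPM in late controls, which overlapped. The difference between the late and early effects was -1.46 on the log2 scale (edgeR adjusted p = 0.00414), and the late controls exceeded the early controls by 1.38 ± 0.19 (edgeR adjusted p = 1.2e-05). The peak between the receptor genes Pdgfra and Kit, 158 kb from Kit, had 6.08, 6.32 and 5.4 CPM in early Fra2 cells and 2.41, 2.03 and 1.68 CPM in early controls, and 3.94, 4.48 and 4.17 CPM in late Fra2 cells and 4.93, 4.65 and 4.81 CPM in late controls. Early Fra2 libraries were above and late Fra2 libraries below all their controls, the late effect being -0.19 ± 0.20 (edgeR adjusted p = 0.57) and the early effect 1.48 ± 0.23 (edgeR adjusted p = 2.57e-06).

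Peaks on either side of the 100 kb threshold were called higher in similar shares. Just inside it, at 100 to 110 kb, 14.5% of peaks were called higher early and 9.85% late, and just outside, at 90 to 100 kb, 14.8% and 9.67%. Members at 100 to 200, 200 to 500 and 500 to 1000 kb were higher early in 15.3, 16.4 and 17.1% and late in 10.2, 12.2 and 15.1%, with late median log2 fold changes of 0.16, 0.22 and 0.29. Of the 952 tested members beyond 1000 kb, 16.0% were higher early and 15.7% late, and the late median was 0.34. The early medians in the 4 bins were 0.17, 0.19, 0.21 and 0.21. Members are mostly weak and weak peaks give fewer calls, so they were also compared with other peaks in 5 bins of mean accessibility. In the bins in rising order, 9.07, 12.3, 18, 25.2 and 24.8% of members were higher in early Fra2 cells, against 4.75, 6.09, 9.94, 13.8 and 11.5% of all other tested peaks. Late gains peaked at middling levels, with 8.55, 11.4, 15.9, 16.5 and 8.46% of members against 4.41, 5.18, 7.61, 8.26 and 3.27% of the others. The late median log2 fold change of members ran from 0.36 in the weakest bin to 0.16 in the fourth and -0.00 in the strongest, while the early one lay between 0.14 and 0.22 in every bin.

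**Figure D4:**
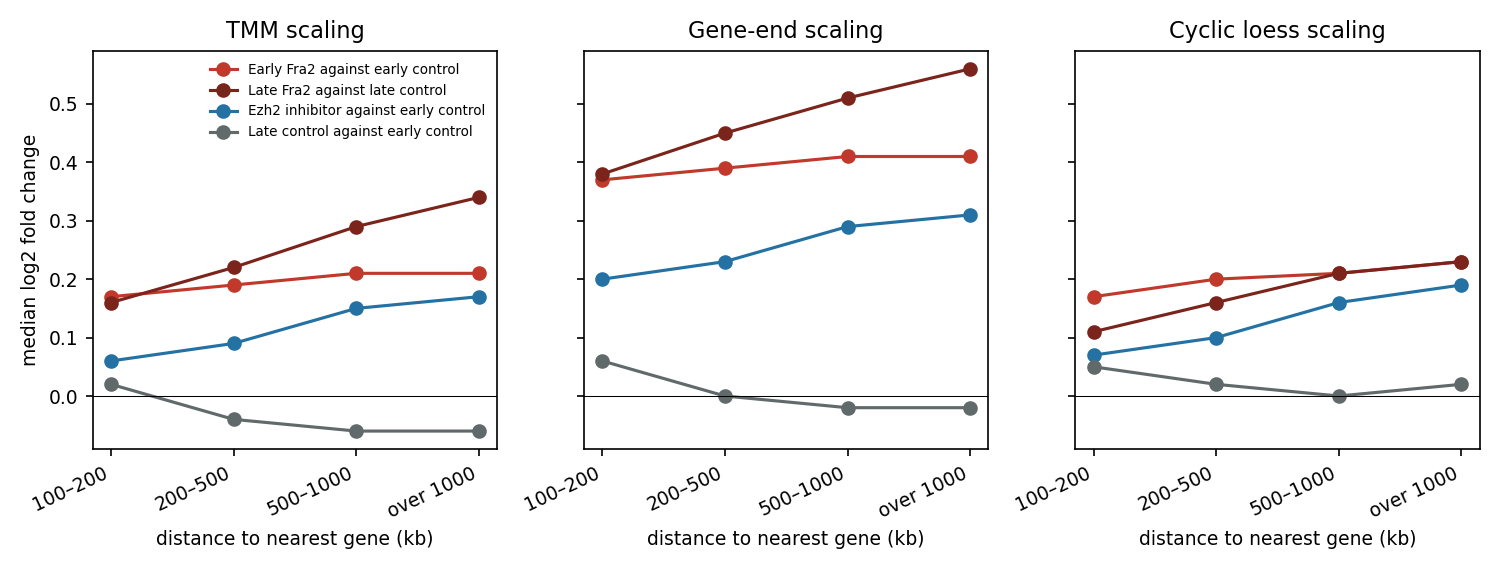
Median log2 fold change (y axis) of gene desert peaks by distance to the nearest protein-coding gene (kb, x axis) under TMM, gene-end and cyclic loess scaling, with 1 line per comparison. Under TMM scaling the median in late Fra2 against late control cells is 0.16 at 100 to 200 kb and 0.34 beyond 1000 kb, and in early Fra2 against early control cells 0.17 and 0.21.

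The members fell into 1290 intervals between neighbouring protein-coding genes, with a median of 11 members in an interval. In early Fra2 cells 920 intervals held a member called higher and 361 one called lower. Of the 707 intervals with 10 or more members, 627 held more higher than lower calls and 23 more lower than higher, and in late cells these counts were 560 and 32. Of all members 16.0% were higher and 2.55% lower early, and 11.9% and 1.54% late, so this balance does not set the intervals apart. The largest cluster, with 155 members, lay between Myc and Gsdmc at chr15:61990362-63775970. There 22 members (14.2%) were higher and 3 (1.94%) lower early, and 13 (8.39%) were higher and 7 (4.52%) lower late. The summed accessibility of its members was 830, 766 and 752 CPM in early Fra2 cells and 757, 713 and 560 CPM in early controls, and 808, 795 and 792 CPM in late Fra2 cells and 756, 827 and 798 CPM in late controls, so both pairs of groups overlapped. Between Klf4, a transcription factor gene used in reprogramming, and Actl7b, 27 of 111 members (24.3%) were higher and 3 (2.7%) lower early. The summed levels were 503, 486 and 484 CPM in early Fra2 cells and 427, 399 and 357 CPM in early controls, without overlap. The interval between Gm15501 and Tenm4, a teneurin adhesion gene, held 112 members, of which 20 (17.9%) were higher and 1 lower early and 21 (18.8%) higher and 0 lower late.

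The remaining 5 of the 8 most populated intervals held 91 to 129 members and had more higher than lower calls at both times. They lay between Slc10a2 and Efnb2 (28 higher and 4 lower early), Zeb2 and Acvr2a (21 and 3), Epha7 and Map3k7 (19 and 2), Nmbr and Cited2 (15 and 3) and Adamts5 and N6amt1 (12 and 3). The shares higher early were 21.7, 16.8, 17.6, 15.8 and 13.2% in this order, against 16.0% of all members. The highest early shares among intervals of 10 or more were 6 of 11 members (54.5%) between Sim1 and Lilr4b, 10 of 20 between Erbb4 and Ikzf2 and 12 of 25 between Htr1a and Ipo11. These 3 were picked for that share, and members of an interval are not replicates of each other.

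**Figure D5:**
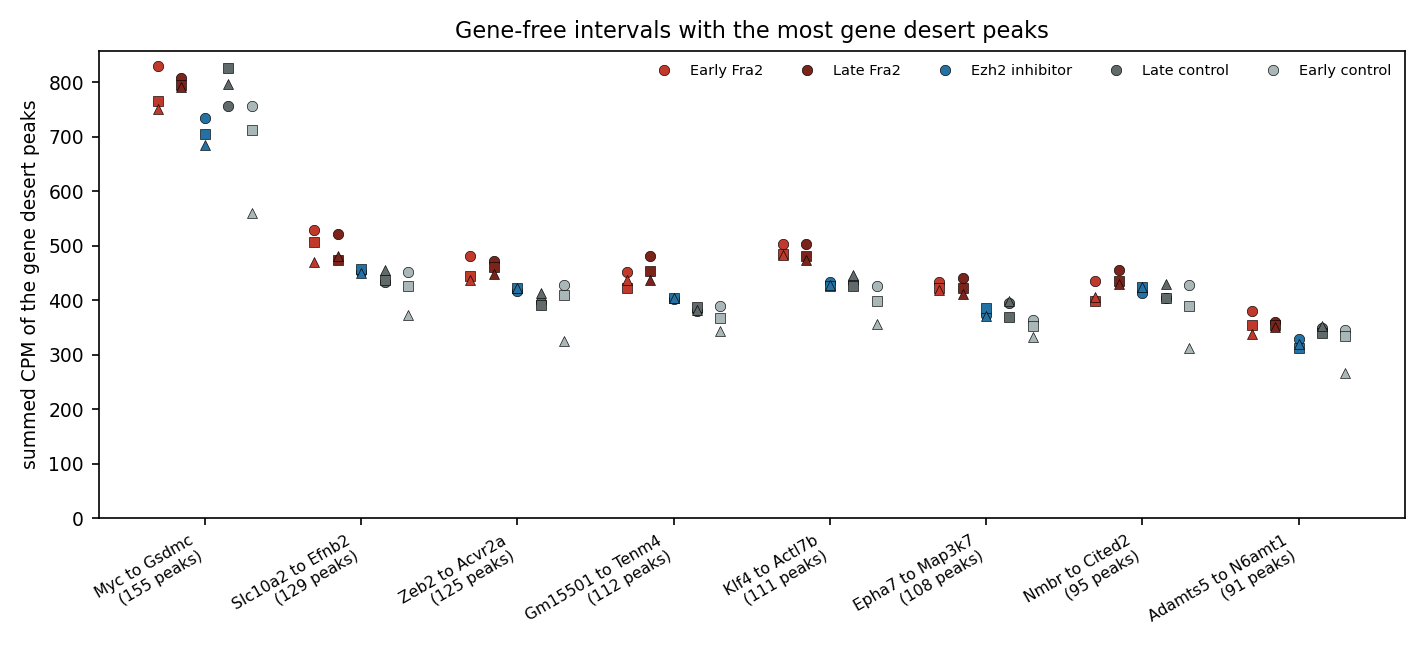
Summed accessibility of the gene desert peaks (TMM-scaled CPM, y axis) in each library for the 8 intervals between neighbouring protein-coding genes with the most members, for early Fra2, late Fra2, Ezh2 inhibitor, late control and early control cells; circle, square and triangle are replicates 1, 2 and 3. Between Klf4 and Actl7b the early Fra2 libraries (484 to 503 CPM) lie above the early controls (357 to 427 CPM), and between Myc and Gsdmc the groups overlap.

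Members were also grouped by their nearest protein-coding gene, to be read against the 16.0% higher and 2.55% lower early and the 11.9% and 1.54% late among all members tested. For gains, the shares of the factor and ligand lists lay at or below those of all members. For late losses the shares lay above 1.54%, on few peaks. They were 2.15% for mesenchymal and limb factors, 2.36% for neural and endodermal factors and 2.86% for ligands. Differences between lists were not tested. Among 931 members nearest to 47 mesenchymal and limb transcription factor genes, 149 (16.0%) were higher and 28 lower early, and 94 (10.1%) higher and 20 lower late. The peak 300 kb from Runx1, a regulator of blood and skeletal cells, had 4.18, 1.84 and 2.09 CPM in early Fra2 cells and 0.537, 0.653 and 0.98 CPM in early controls (log2 fold change 2.03 ± 0.41, edgeR adjusted p = 0.000313). That 412 kb from Ebf1, an early B cell and adipocyte factor gene, had 1.99, 2.08 and 2.02 CPM in early Fra2 cells and 0.268, 0.653 and 0.7 CPM in early controls (log2 fold change 2.02 ± 0.46, edgeR adjusted p = 0.00131). Neither overlapped between the groups. Among 551 members nearest to 38 neural and endodermal transcription factor genes, 80 (14.5%) were higher and 13 lower early, and 60 (10.9%) higher and 13 lower late. One of these, 184 kb from Irx5, a homeobox gene, had 6.36, 7.99 and 6.27 CPM in early Fra2 cells and 2.41, 1.45 and 1.96 CPM in early controls (log2 fold change 1.78 ± 0.22, edgeR adjusted p = 1.8e-08), without overlap. This peak was also called higher in late Fra2 cells (0.63 ± 0.19, edgeR adjusted p = 0.026). Late controls were called above early controls at it (0.88 ± 0.24, edgeR adjusted p = 0.0236). Another, 102 kb from Foxa2, a pioneer factor gene of endoderm, had 4.28, 3.31 and 3.87 CPM in late Fra2 cells and 1.72, 1.33 and 0.792 CPM in late controls (log2 fold change 1.60 ± 0.28, edgeR adjusted p = 0.00012), without overlap.

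Among 420 members nearest to 33 growth factor and ligand genes, 64 (15.2%) were higher and 10 lower early, and 45 (10.7%) higher and 12 lower late. Of the peaks near Bmp2, a bone morphogenetic protein gene, the one 113 kb away had 0.665, 0.24 and 0.288 CPM in early Fra2 cells and 1.93, 1.02 and 2.1 CPM in early controls (log2 fold change -1.93 ± 0.48, edgeR adjusted p = 0.00359), and its late log2 fold change was 0.80 ± 0.45 (edgeR adjusted p = 0.252). The one 414 kb away, on the other side of the gene, had 2.61, 2.13 and 3.25 CPM in late Fra2 cells and 0.822, 0.784 and 1.28 CPM in late controls (log2 fold change 1.45 ± 0.32, edgeR adjusted p = 0.00218), and its early log2 fold change was 0.30 ± 0.30 (edgeR adjusted p = 0.53). At that peak late controls lay below early controls (-1.16 ± 0.35, edgeR adjusted p = 0.0449), and the mean was 2.67 CPM in late Fra2 cells and 2.2 CPM in early controls. The peak 281 kb from Gdf6, a joint-forming factor gene of the same family, gained at both times, by 1.46 ± 0.22 early (edgeR adjusted p = 1.62e-06) and 1.44 ± 0.21 late (edgeR adjusted p = 5.59e-06). The peak 132 kb from Cxcl12 had 1.23, 0.24 and 1.08 CPM in early Fra2 cells and 3.0, 2.83 and 4.76 CPM in early controls (log2 fold change -1.93 ± 0.38, edgeR adjusted p = 0.000221), the same direction as at the 6820426E19Rik site.

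Members beside neuronal adhesion and synapse genes were the largest group, with 1547 members nearest to 78 of 98 listed genes. Of these, 273 (17.6%) were higher and 37 lower early, and 247 (16.0%) higher and 9 lower late. The early share is near that of all members, and the late share compares with 11.9% of all members. The peak 110 kb from Csmd1 had 4.03, 3.92 and 3.75 CPM in early Fra2 cells and 1.07, 0.145 and 0.98 CPM in early controls (log2 fold change 2.42 ± 0.40, edgeR adjusted p = 1.21e-05). Early control 2 lay below its floor of 0.218 CPM there. The peak 415 kb from Gabrg1, an inhibitory receptor subunit gene, had 1.58, 1.76 and 1.53 CPM in late Fra2 cells and 0.299, 0.422 and 0.305 CPM in late controls (log2 fold change 2.22 ± 0.48, edgeR adjusted p = 0.00149). Neither overlapped between the groups. At the Gabrg1 peak late controls were also called below early controls (-1.73 ± 0.52, edgeR adjusted p = 0.0479). The mean there was 1.63 CPM in late Fra2 cells and 1.31 CPM in early controls. Gene-end accessibility of 9 neuronal and glial marker genes, of which Rbfox3 and Stmn2 had no gene-end peak, summed to 43.0 to 46.2 CPM in early Fra2 cells and 51.1 to 58.2 CPM in early controls. The sums were 40.3 to 43.3 CPM in late Fra2 cells and 47.9 to 55.0 CPM in late controls. Gene-end peaks as a whole had median log2 fold changes of -0.22 early and -0.23 late, and the fibroblast markers summed to 201 to 221 CPM in late Fra2 cells and 235 to 263 CPM in late controls. The part of other cell types in the desert gains was not tested. Under gene-end scaling, cyclic loess, DESeq2 and without early control 3, higher calls outnumbered lower ones in each of these 4 lists at both times. The list of AP-1 family genes had 38 members, 27 nearest to Maf, a relative of the AP-1 proteins, and 11 nearest to Jun, a Fra2 partner, of which 7 (18.4%) were higher and 1 lower early and 7 (18.4%) higher and 0 lower late. The late higher count was 4 under cyclic loess and 5 with DESeq2, and with so few members these shares are not set apart from those of all members. One of them, 376 kb from Maf, had 11.7, 11.8 and 10.2 CPM in early Fra2 cells and 5.21, 4.06 and 4.76 CPM in early controls (log2 fold change 1.26 ± 0.17, edgeR adjusted p = 1.64e-07), without overlap.

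Non-coding genes overlapped 4373 members (18.8%), and the remaining members overlapped no annotated gene. Of all members 4091 (17.6%) overlapped a long non-coding RNA gene and 986 (4.24%) lay within 1 kb of an end of some non-coding gene. Of these 986, 117 (11.9%) were higher and 37 (3.75%) lower early, a smaller share of gains than the 16.0% of all members. Few members lay at microRNA genes. Of 24 that overlapped one, 0 were higher and 1 (4.17%) lower early and 2 (8.33%) higher and 1 (4.17%) lower late. Of 35 within 1 kb of an end, 1 (2.86%) was higher and 1 (2.86%) lower early and 2 (5.71%) higher and 1 (2.86%) lower late. All members had 16.0% and 2.55% early and 11.9% and 1.54% late. With so few peaks these shares are not set apart from those of all members. The peaks described next were picked from those called. The peak beside Mir29a and Mir29b-1, 103 kb from Klf14 at chr6:31062033-31062534, is shown because its microRNAs are known in fibroblasts as repressors of collagen and other matrix genes, and their mature sequences share a seed, bases 2 to 8, set in capitals.
mmu-miR-29a-3p: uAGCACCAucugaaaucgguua
mmu-miR-29b-3p: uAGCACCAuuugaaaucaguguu
This peak had 15.4, 16.5 and 13.3 CPM in early Fra2 cells and 8.8, 8.42 and 7.0 CPM in early controls (log2 fold change 0.88 ± 0.16, edgeR adjusted p = 6.03e-05), without overlap. In late cells it had 11.2, 11.7 and 13.9 CPM with Fra2 guides and 11.0, 12 and 10.4 CPM with scrambled guides, which overlapped (log2 fold change 0.13 ± 0.15, edgeR adjusted p = 0.611). The peak over Mir344-2, 408 kb from Ndn, had 3.04, 4.05 and 2.7 CPM in late Fra2 cells and 1.12, 1.33 and 1.46 CPM in late controls (log2 fold change 1.31 ± 0.26, edgeR adjusted p = 0.000614). Late controls were also called below early controls at this peak (-1.12 ± 0.28, edgeR adjusted p = 0.0136). Its mean was 3.26 CPM in late Fra2 cells and 2.84 CPM in early controls. In the imprinted cluster between Rtl1 and Dio3, the peak at Mir377 fell in late Fra2 cells, to 1.37, 1.12 and 1.47 CPM against 3.51, 2.35 and 3.47 CPM in late controls (log2 fold change -1.23 ± 0.28, edgeR adjusted p = 0.00232). Neither Mir344-2 nor Mir377 overlapped between the groups. Levels of the microRNAs were not measured by this assay.

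The Ezh2 inhibitor moved few gene desert peaks. Against early controls, 201 members were higher and 62 lower (0.865% and 0.267%, against 0.552% and 0.341% of all tested peaks). The median log2 fold change of the members was 0.09 and that of all tested peaks -0.00. The count of 263 depended on single libraries, with 712 without early control 3 (465 higher and 247 lower), 430 without early control 1, 48 without early control 2 and 32, 57 and 33 without inhibitor 1, 2 and 3. With gene-end scaling, under which the median of all tested peaks was 0.14, 1121 were higher and 44 lower (3.58% and 0.26% of all tested peaks), so that 96.2% of calls were higher, against 76.4%. The peak 710 kb from Pcdh9, a protocadherin gene, at chr14:92303086-92303587, had 5.85, 3.68 and 4.66 CPM in inhibitor cells and 1.72, 0.943 and 1.12 CPM in early controls (log2 fold change 1.83 ± 0.24, edgeR adjusted p = 1.37e-05), without overlap. The early Fra2 libraries, set against the same controls, had 6.27, 5.76 and 5.4 CPM at this peak. The peak 304 kb from Pdgfc, the gene of a growth factor for mesenchymal cells, had 6.55, 4.68 and 6.02 CPM in inhibitor cells and 2.68, 2.1 and 3.36 CPM in early controls (log2 fold change 1.13 ± 0.20, edgeR adjusted p = 0.00238). Early Fra2 cells had 8.78, 7.75 and 7.57 CPM.

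The other gains with the inhibitor named by size lay near Psat1, a serine synthesis gene, Tmco5, Naaladl2, Atp10a and Zfp462, with log2 fold changes of 1.44 to 1.79. The peak 209 kb from Myc, on its A1bg side, had 5.93, 5.13 and 6.64 CPM in inhibitor cells and 3.33, 3.19 and 2.8 CPM in early controls (log2 fold change 0.90 ± 0.20, edgeR adjusted p = 0.0147). Losses were small in number. The peak 219 kb from Cryba4, the one with the largest loss, had 0.22, 0.59 and 0.0777 CPM in inhibitor cells and 0.59, 1.96 and 4.34 CPM in early controls (log2 fold change -2.81 ± 0.65, edgeR adjusted p = 0.0222). Inhibitor 3 lay below its floor of 0.117 CPM at this peak. Early control 3 was the highest library there, and without it the log2 fold change was -2.07 (edgeR adjusted p = 0.0436). The peak 250 kb from Cps1, the urea cycle enzyme gene, had 0.176, 0.318 and 0.388 CPM in inhibitor cells and 1.07, 1.6 and 0.98 CPM in early controls (log2 fold change -2.03 ± 0.46, edgeR adjusted p = 0.0184), without overlap. Of the 12 inhibitor peaks named by size, 10 lost their call without some library. DESeq2 gave no adjusted p for 10 of the 12. By list, 23 of 1547 members beside neuronal adhesion genes (1.49%) were higher and 2 lower, against 0.865% and 0.267% of all members, and 41 and 7 without early control 3. The counts were 6 and 0 of 931 beside mesenchymal factor genes (10 and 14 without early control 3), 2 and 1 of 551 beside neural and endodermal factor genes (8 and 5) and 3 and 3 of 420 beside ligand genes (5 and 4).

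Late and early controls differed in both directions, without Fra2 guides in either. In late controls 455 members were higher and 506 lower than in early controls (1.96% and 2.18%, against 2.04% and 1.23% of all tested peaks), and the median log2 fold change was -0.02. The balance of calls depended on the scaling and on single libraries, with 791 higher and 407 lower under gene-end scaling (3.63% and 0.977% of all tested peaks) and 884 higher and 659 lower under cyclic loess (3.37% and 2.21%), so that 66.0% and 57.3% of calls were higher, against 47.3%. Without early control 1 it was 640 higher and 450 lower, and without early control 3 it was 486 higher and 650 lower. No direction is given. The count of 961 was 485 without early control 2, 328 without late control 2 and 512 without late control 3. The peak 435 kb from Dcdc2c, on the side of the transcription factor gene Sox11, had 3.21, 3.98 and 3.41 CPM in late controls and 0.644, 0.943 and 2.38 CPM in early controls (log2 fold change 1.67 ± 0.30, edgeR adjusted p = 0.000578). The peak 164 kb from Robo2, an axon guidance receptor gene, had 0.822, 0.784 and 0.487 CPM in late controls and 2.74, 2.54 and 2.8 CPM in early controls (log2 fold change -1.94 ± 0.36, edgeR adjusted p = 0.000855). Neither overlapped. Beside neuronal adhesion genes, 14 members (0.905%) were higher and 41 (2.65%) lower in late controls, against 1.96% and 2.18% of all members. The counts were 24 and 28 under gene-end scaling, 41 and 55 under cyclic loess and 17 and 58 without early control 3.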

How the data were processed

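Omni-ATAC-seq libraries of MEFs were analysed in 5 groups of 3. The deposited table holds raw read counts of 15 libraries in 206367 consensus peaks, and the authors' deposited peak lists give per library a score, a fold enrichment as a linear ratio and −log10 p and q values. Peaks were called with MACS2 on mm10, per the submitters' processing notes; its version, the aligner's settings, any shift of reads for the transposase and the method behind the consensus are not given in the sources used for this work. A shift moves reads by a few bases and the peaks are 502 bp wide.

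Peak centres were set against RefSeq GRCm38.p6 gene intervals, which carry no strand, so starts and ends of genes were not told apart. Members, gene lists and tests were chosen with earlier results of these data known. Counts were fitted in 1 model of 15 libraries with edgeR 4.0.16 (R 4.3.3; filterByExpr, TMM, quasi-likelihood F-test), with Benjamini-Hochberg adjustment over all tested peaks and calls at an adjusted p under 0.05. On simulated data for the early Fra2 comparison, 6 of 67 peaks changed 1.5-fold, 34 of 67 changed 2-fold and 63 of 66 changed 4-fold were called, with 4 false calls. Far fewer peaks were changed there than were called in the data, which makes the adjustment stricter, so these shares do not carry over. Read shares were compared by exact permutation. Levels are CPM scaled by the TMM factors. Alternatives were DESeq2 1.42.0, limma 3.58.1 after cyclic loess, other scalings, filters and distances, and each library left out. Peak lists were intersected with bedtools 2.31.1 at an overlap of 1 bp or more. Intervals and floors cover counting error only.

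Named peaks are, per comparison, the 6 higher and 6 lower called members of largest change with no overlap between groups, at least 1 CPM in the higher group and at most 1 per 1 Mb. Named too are the 10 strongest and 5 farthest members, the 8 most populated intervals, the 6 strongest members at ends of non-coding genes, 2 peaks per list and comparison, members at microRNA genes and those whose window is shown. Not all of these are described. The 3 intervals with the highest early share, and the first 4 peaks whose Fra2 effect differed, were added after their values were seen.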

Additional observations from a re-analysis of the deposited data

Results flagged for a closer look

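The Fra2 effect differed between late and early cells, by a test of the interaction itself, at 28 gene desert peaks. The late minus early difference was -1.46 at the peak 452 kb from Zfp462, -1.68 between Pdgfra and Kit, -1.33 at the peak 187 kb from Lacc1 and -1.25 at the peak 147 kb from Gpc6, all on the log2 scale. At Lacc1 the libraries had 18.4, 17.9 and 15.3 CPM in early Fra2 cells and 8.75, 6.68 and 3.36 CPM in early controls, and 16.4, 14.3 and 13.4 CPM in late Fra2 cells and 14, 15.4 and 13.8 CPM in late controls. At Gpc6, a glypican gene, they had 11.2, 12.8 and 10.2 CPM in early Fra2 cells and 6.33, 5.59 and 3.5 CPM in early controls, and 8.82, 7.73 and 9.58 CPM in late Fra2 cells and 10.1, 9.29 and 10.2 CPM in late controls. At all 4 peaks the late controls lay above the early controls without overlap, a pattern that choosing peaks by a negative difference favours.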

How the results depend on the processing

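With scaling on gene-end peaks the calls numbered 6543 early, 6280 late, 1165 with the inhibitor and 52 for the effect difference, against 4322, 3123, 263 and 28, and medians were 0.39, 0.43 and 0.23. Cyclic loess gave 554 calls with the inhibitor, 1543 between controls (against 961) and a late median of 0.15. The median between controls turned to 0.02 with gene-end scaling and 0.03 with cyclic loess. Members beyond 200 kb gave 2583, 1955, 157, 549 and 14 calls for the early, late, inhibitor, control and difference tests, and members beyond 100 kb of any gene 865, 692, 54, 176 and 3, sets that hold fewer peaks. Leaving out 1 library gave 2797 to 5141, 1509 to 4591, 32 to 712, 328 to 1136 and 4 to 86 calls. The log2 ratio of read shares, 0.21 early, 0.20 late, 0.11 with the inhibitor and 0.00 between controls, was 0.19 early and 0.09 with the inhibitor at 50 kb, 0.23, 0.24, 0.13 and -0.02 at 200 kb, 0.25, 0.26, 0.16 and -0.02 beyond any gene, and 0.15, 0.14, 0.07 and -0.01 outside gene ends. Leaving out 1 library moved it over 0.2 to 0.22 early, 0.19 to 0.23 late, 0.2 to 0.22 over both times, 0.1 to 0.11 with the inhibitor and -0.02 to 0.02 between controls. The causes were not tested. A replicate block gave 4369, 3113, 285, 1022 and 35 calls. Same-numbered libraries correlated at -0.192 to 0.262, 4 of 30 pairs over 0.1, and 6 of 15 libraries correlated best with their own number, so the numbers were not taken as pairing. Calls of named peaks kept their direction; 44 of 133 checks lost the call with the inhibitor (DESeq2 gave no adjusted p for 10 further ones), 8 of 144 between controls, 3 of 144 late and 0 of 143 early. In simulation at these depths and with the spread of the fitted trend, 6 of 67 changes of 1.5-fold were called, and depth was not varied. Far fewer peaks were changed there than were called in the data, so this share does not carry over.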
